A study of Mus musculus with 2 samples.

Results

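The genes described here are 10 receptors and bridging proteins for dying cells, namely Axl, Mertk, Tyro3, Gas6, Pros1, Timd4, Stab1, Stab2, Mrc1 and Mfge8. They were taken by symbol from 2 tables of gene levels, and all 10 had a row in both tables, out of 20938 genes in all. RNA-seq was performed on 1 library of splenic Treg cells of Foxp3-Mettl14f/+ cKO mice and on 1 library of littermate controls. In the cKO mice 1 floxed Mettl14 allele is removed by a Cre recombinase under the Foxp3 promoter, so that the deletion is heterozygous and limited to cells that have expressed Foxp3. The labels call the control wild type, the methods describe littermates as Mettl14 f/f in their genotyping, and the labels describe the cKO library as a Foxp3 knockdown, whereas the study's methods give the genotype used here. All recipients were on the C57BL/6J background, had been made diabetic with streptozotocin, carried BALB/c islets under the kidney capsule and had received no tolerance-inducing antibodies, and cells were taken on day 7. Treg cells were obtained with magnetic beads, by removal of cells other than CD4+ T cells and then positive selection for CD25. The age of the mice and the number pooled per library are not given in the sources used here. With 1 library per genotype no difference has a replicate check, and the 95% intervals below cover counting error of the reads only.

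Apoptotic cells expose phosphatidylserine, and phagocytes bind it either directly or through soluble bridges. The TAM receptor tyrosine kinases AXL, MERTK and TYRO3 bind it through the vitamin K dependent ligands GAS6 and protein S, which is encoded by Pros1. MFG-E8, encoded by Mfge8, links it to integrins of the alpha-v family, whereas TIM-4, encoded by Timd4, and the stabilins bind it themselves. Mrc1 encodes the mannose receptor CD206, a scavenger receptor for glycoproteins. In the spleen these receptors are best known from tissue macrophages and, for the stabilins, from sinus endothelium.

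Whole reads could be recovered from the deposited levels, and their totals were 20239325 (control) and 18327535 (cKO). Treg genes were present, with 1547 control and 1361 cKO reads for Foxp3, but granulocyte markers held 12787 and 16442 of every 1000000 reads in contrast to 2764 and 2047 for 13 T cell core genes. RNA of cells other than T cells was thus present in both. Of 16 T cell core genes listed, Trac, Trbc1 and Trbc2 had no row, so the T cell sum leaves them out. Below, paired values stand in the order control, cKO. Mettl14, the targeted gene, had 948 and 652 reads and changed by -0.31 on the log2 scale.

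Most of the receptors were higher in the cKO library, and the soluble bridging proteins were not. Genes were compared where their level averaged 1 or more, which held for 9 of the 10, and 5 of these were higher by 1.5-fold or more in cKO (Mertk, Axl, Timd4, Stab2 and Mrc1). Among all 16659 genes compared 17.2% were higher by that much. Only Stab1 was at least 1.5-fold lower, against 24.2% of all genes compared. Tyro3, Pros1 and Mfge8 were within 1.5-fold, and Gas6 had 0 reads in both libraries. The median log2 change of the 9 genes was 2.26, whereas it was -0.04 over all genes compared. Log2 changes are cKO over control, with 1 added to each level.

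**Figure D1:**
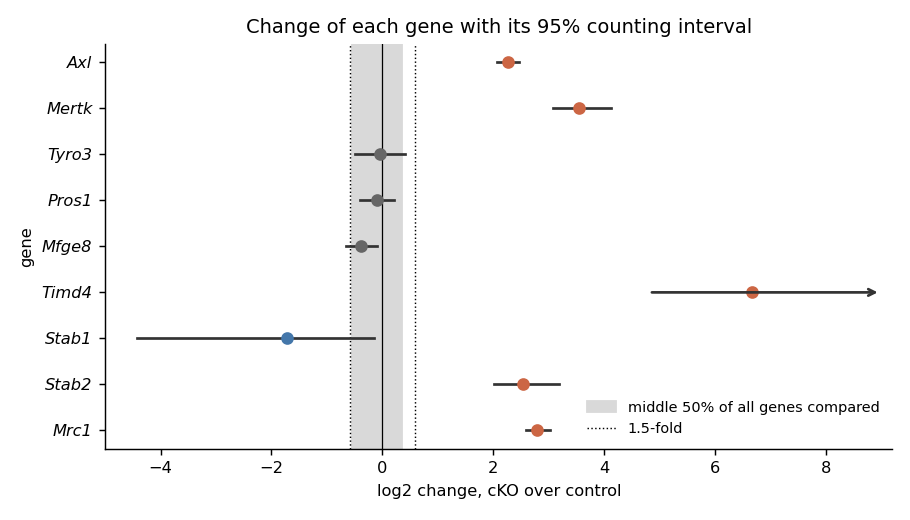
Log2 change (cKO over control, horizontal axis) of the 9 genes compared, with points for the change and lines for the 95% counting interval of the ratio of levels. The arrow of Timd4 has no upper end because the control library had 0 reads. The grey band holds the middle 50% of all genes compared (-0.55 to 0.35) and the dotted lines mark 1.5-fold. Axl, Mertk, Timd4, Stab2 and Mrc1 lie to the right of the band.

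The genes that were higher lie apart in the genome, apart from Mertk and Mrc1 on the same chromosome. On GRCm38, with GENCODE vM21, Mertk spans chr2:128698956-128802894 and Mrc1 chr2:14229392-14332057 on the plus strand, as does Timd4 at chr11:46810800-46844332. Axl spans chr7:25757273-25788705 and Stab2 chr10:86841198-87008025, both on the minus strand.

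The 3 TAM receptors moved apart. Mertk, the receptor that clears apoptotic cells in resident macrophages, had levels of 33.9 and 406, from 35 and 357 reads. Its level was thus 12.0-fold higher (95% interval 8.46 to 17.5), the largest ratio among those of the 10 genes with reads in both libraries. Axl, which is induced in macrophages and dendritic cells by inflammation, had a level of 242 and 1162, from 250 and 1022 reads. The cKO level was 4.81-fold the control level (4.18 to 5.54). Tyro3, the third receptor of the family, is better known from neurons and dendritic cells. It had levels of 90.9 and 88.7 from 94 and 78 reads, a ratio of 0.975 with an interval of 0.713 to 1.33, so a change in either direction of up to about that size was not detectable at this depth. The intervals of Mertk, Axl and Tyro3 did not overlap each other. Red pulp macrophage markers moved with Mertk and Axl, since all 10 were past 1.5-fold upward, with a median log2 change of 2.12. The part of these markers in the result was not tested, and in bulk RNA more cells of a type and more RNA per cell cannot be told apart.

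The make-up of the TAM receptor transcripts changed. Of the 379 TAM receptor reads in the control library, 9.23% were from Mertk (exact Clopper-Pearson interval 6.52% to 12.6%), 66.0% from Axl (61.0% to 70.7%) and 24.8% from Tyro3 (20.5% to 29.5%). In the cKO library there were 1457 such reads, and 24.5% were from Mertk (22.3% to 26.8%), 70.1% from Axl (67.7% to 72.5%) and 5.35% from Tyro3 (4.25% to 6.64%). The share of Mertk was higher and that of Tyro3 lower beyond counting error, while the intervals for Axl overlapped. Per kilobase of exon, which allows the genes to be compared, Axl made up 68.1% in both libraries (66.5% and 72.0% per kilobase of coding length), while Tyro3 made up 20.8% and Mertk 11.1% in the control library. The order of Tyro3 and Mertk was the opposite with cKO, at 4.22% and 27.6%.

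Among the receptors outside the TAM family, Timd4 showed the clearest contrast. This phosphatidylserine receptor marks resident macrophages. It had 0 control reads and 89 cKO reads, the latter at a level of 101. Against a floor of 3 reads in the control library the cKO level was at least 34.9-fold higher, a bound that leaves out the counting error of the cKO reads. With that error included, the lower end of the 95% interval of the ratio was 27.8-fold. Of 916 genes with 60 to 120 cKO reads only 5 had 0 control reads (0.546%), and Timd4 was one of them. At the other end of the scale zeros were frequent: of 1224 genes that had 10 to 19 control reads, 610 (49.8%) had 0 cKO reads, which exceeds sampling noise.

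Mrc1 held the most reads of the 10 genes over both libraries together, although Mfge8 and Axl had more in the control library. It had levels of 205 and 1431 from 212 and 1258 reads. Its level was 6.98-fold higher (95% interval 6.03 to 8.11). With 2 libraries, likeness between genes reduces to the size of 1 change. The 3 genes nearest to Mrc1 in log2 change among those with a mean level within 2-fold of it were Thbs1, Pira11 and Ebf1, at distances of 0.14, 0.16 and 0.21 on the log2 scale. Ebf1 encodes a B cell transcription factor, and the 10 B cell markers, Ebf1 included, were all past 1.5-fold upward with a median of 2.47. The part of B cells in this value was not tested.

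The 2 stabilins moved in opposite directions. Stab2, a scavenger receptor of sinus endothelium, had levels of 29.99 and 180 from 31 and 158 reads, a 5.99-fold higher cKO level (95% interval 4.06 to 9.11). Stab1, its paralog, which is also made by macrophages, had levels of 13.5 and 3.41 from 14 and 3 reads, a ratio of 0.252 (0.0464 to 0.903). Of the genes that had 10 to 19 control reads 52.7% had 3 or fewer cKO reads, and 49.8% had 0. A fall to 3 reads or below was thus common at that depth, but mostly as a fall to 0, which Stab1 did not show. Endothelial markers were set beside Stab2. Of 9 endothelial markers compared 0 were higher and 4 lower by 1.5-fold or more, with a median log2 change of -0.29. Among all genes compared 17.2% were higher and 24.2% lower by that much. The summed endothelial level was 2846 and 3698, with most reads from Pecam1 (2339 and 2836). Vwf had 210 and 237 reads. Emcn was at 0 in both libraries, Tek was at 0 in the cKO library, and Lyve1 had 16 and 11 reads. The part of endothelial cells in the Stab2 level was not tested. Stab1 shares 112 exonic bases with Nt5dc2 on the opposite strand (585 and 293 reads), and Stab2 shares 141 with the antisense gene Gm16268. Whether the counting used strand is not given in the sources used here, so these reads may be shared.

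**Figure D2:**
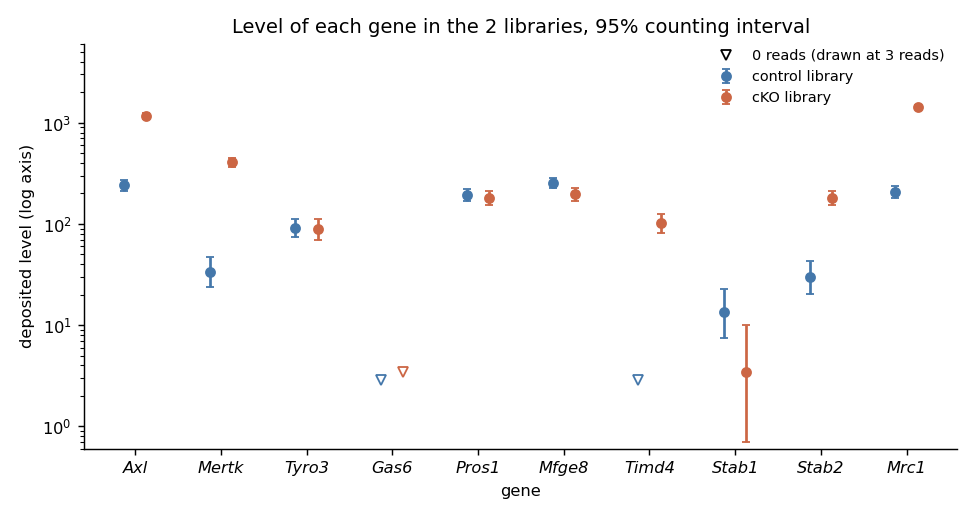
Deposited level (log axis) of each of the 10 genes in the control and cKO libraries, with points for the level and bars for the 95% counting interval. Open triangles mark 0 reads and are drawn at the level of 3 reads (2.90 for control and 3.41 for cKO). The paired points of Tyro3 and Pros1 nearly coincide, while those of Axl, Mertk, Stab2 and Mrc1 are far apart.

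The soluble bridges did not follow the receptors. Gas6, the ligand that activates all 3 TAM receptors, had 0 reads in both, and 3 reads would correspond to levels of 2.90 and 3.41. In all, 4041 genes were listed at 0 in both libraries. Pros1, which encodes the ligand of MERTK and TYRO3 and is also an anticoagulant, had levels of 193 and 182 from 200 and 160 reads. The ratio was 0.940, with an interval of 0.759 to 1.16 that includes 1. Mfge8 had levels of 254 and 196 from 263 and 172 reads, a ratio of 0.769 (0.631 to 0.935). After T cell core genes were set equal between the libraries, which moved the median of all genes by 0.25 to 0.20, Pros1 changed by 0.16 and Tyro3 by 0.21 on the log2 scale in place of -0.09 and -0.04, and both signs turned. Mfge8 changed by -0.13 on that scale in place of -0.38. Follicular dendritic cells are a known source of MFG-E8. Of 10 stromal and follicular dendritic markers 5 could be compared, and 1 of these was higher (Clu, with 27 and 109 reads) and 3 were lower by 1.5-fold or more. The shares among all genes compared were 17.2% and 24.2%. Col3a1, Ccl21a, Cxcl13 and Madcam1 were at 0 in both libraries, and Ccl19 was at 0 with cKO. The part of these cells in the Mfge8 level was not tested.

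Reads per kilobase of exon and 1000000 reads (RPKM) give the order of the genes within a library. In the control library Mfge8 stood first with 2.77 RPKM, followed by Axl with 2.45 and Pros1 with 2.42. The counting intervals of these 3 overlapped, and the next gene, Mrc1 with 1.64 RPKM, lay below them. Tyro3 with 0.749 RPKM and Mertk with 0.399 came next. Stab2 with 0.175 and Stab1 with 0.0672 RPKM followed, and Timd4 and Gas6 had no reads. In the cKO library Axl with 11.1 RPKM and Mrc1 with 10.8 led, with overlapping intervals, and Mertk came next with 4.49. Timd4 with 2.23, Pros1 with 2.14 and Mfge8 with 1.999 RPKM overlapped each other. Stab2 with 0.984 RPKM and Tyro3 with 0.687 followed, and the intervals of this pair met within 0.837 to 0.857. Stab1 with 0.0159 RPKM came before Gas6. Among all genes with reads, Axl lay at percentile 40.2 of the RPKM values in the control library and at percentile 67.2 in the cKO library, so even the most abundant of these receptors was a transcript of middle rank.

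**Figure D3:**
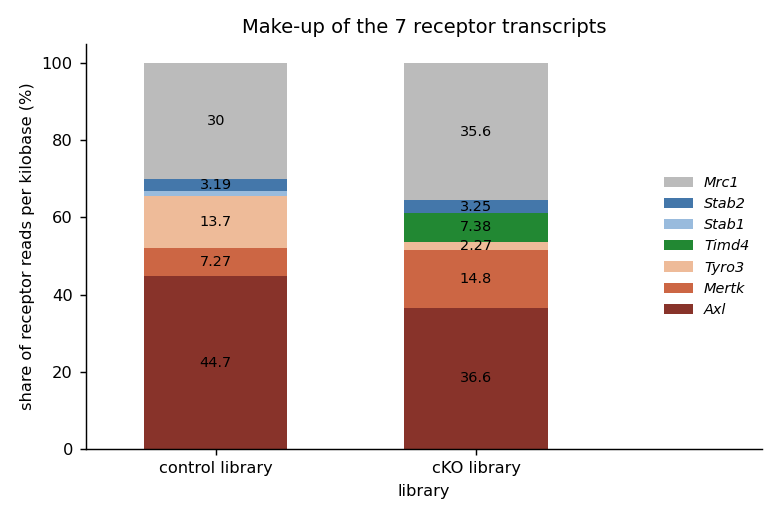
Share (%) of each of the 7 receptor transcripts in their summed reads per kilobase of exon, as stacked bars for the control and the cKO library. Tyro3 takes 13.7% of the control bar and 2.27% of the cKO bar, Mertk takes 7.27% and 14.8%, and Timd4 appears in the cKO bar alone with 7.38%.

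The promoters of 4 of the genes that were higher are shown as examples, and that of Stab2 is left out. Each run holds the 250 bases before the RefSeq start site on GRCm38.p6, in the direction of the gene. RefSeq and GENCODE starts differ for some of these genes. The bases just after the RefSeq start were not found in a GENCODE transcript for Mertk, Axl, Timd4 and Gas6. The Mrc1 window ends at 14229413, past the GENCODE start at 14229392, and the window of Stab2 also runs into its GENCODE span. That of Tyro3 lies wholly within its GENCODE span. Capitals mark matches, on either strand, to GAGGAA (the core of PU.1 sites), TGCTGA (a MAF core), AGGTCA (a nuclear receptor core), TGTGGT (a RUNX core) or TATAAA. No match overlapped another in these windows.
Mertk (chr2:128698665-128698914, plus strand): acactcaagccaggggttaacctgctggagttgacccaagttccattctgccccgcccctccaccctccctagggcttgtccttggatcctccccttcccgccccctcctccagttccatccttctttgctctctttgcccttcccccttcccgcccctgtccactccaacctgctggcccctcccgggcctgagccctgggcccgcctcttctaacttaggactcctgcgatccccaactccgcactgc
Axl (chr7:25788734-25788983, minus strand): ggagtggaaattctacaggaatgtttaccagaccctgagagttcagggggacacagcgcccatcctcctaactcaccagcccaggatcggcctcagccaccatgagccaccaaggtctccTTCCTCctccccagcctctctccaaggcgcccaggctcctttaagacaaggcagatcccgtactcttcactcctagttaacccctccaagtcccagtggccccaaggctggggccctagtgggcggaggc
Timd4 (chr11:46810549-46810798, plus strand): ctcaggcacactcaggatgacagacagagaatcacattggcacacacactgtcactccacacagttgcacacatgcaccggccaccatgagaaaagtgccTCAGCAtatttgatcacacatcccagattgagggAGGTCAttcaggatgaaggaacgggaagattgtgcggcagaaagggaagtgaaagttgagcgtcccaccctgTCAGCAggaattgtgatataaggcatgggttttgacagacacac
Mrc1 (chr2:14229164-14229413, plus strand): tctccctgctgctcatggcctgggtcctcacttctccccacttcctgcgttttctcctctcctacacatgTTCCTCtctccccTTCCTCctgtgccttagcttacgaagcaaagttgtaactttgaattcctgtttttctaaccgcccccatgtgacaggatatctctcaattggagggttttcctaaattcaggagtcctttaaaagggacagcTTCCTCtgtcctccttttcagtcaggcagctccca

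The PU.1 core, bound by the main myeloid transcription factor, was matched 3 times before Mrc1, with the nearest match starting at position -35, and once before Axl at position -130. It was also matched before Mfge8 and Stab1, which were not higher, so 4 of the 10 promoters held it, compared with 23.2% of 32851 RefSeq promoter windows of the same length. Timd4 had 2 MAF cores and 1 nuclear receptor core. The MAF core was also matched before Stab1, which was lower. The MAF core was found in 16.1% and the nuclear receptor core in 14.02% of all windows. Stab2 held a nuclear receptor core and a RUNX core. The RUNX core was also matched before Mfge8, which was not higher, and it was found in 14.05% of all windows. TATAAA was in 0 of the 10 windows and in 12.4% of all. Mertk had no match among its 250 bases, and the 5 strings say nothing of sites elsewhere. Stab2 and Mrc1 had 3 CpG pairs each in this window, Timd4 had 4, Axl and Stab1 had 5 each and Mertk had 7. Gas6 had 10, Mfge8 had 12, Pros1 had 15 and Tyro3 had 24, and the median over all windows was 6.

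For 14863 genes with 10 or more reads in total, the recovered reads were compared by an exact binomial test. It compares the 2 libraries and not the genotypes. With thresholds of 0.1 for the adjusted p and 1.5-fold for the change it called 14.8% of genes higher and 17.6% lower. The same 5 genes were called higher, with adjusted p of 8.94e-214 for Mrc1, 3.39e-135 for Axl, 1.25e-77 for Mertk, 2.17e-29 for Timd4 and 5.05e-25 for Stab2 in the exact binomial test. Stab1 was called lower with an adjusted p of 0.0390 in this exact test. Mfge8 had an adjusted p of 0.00776 in the exact test but was less than 1.5-fold lower, and Pros1 and Tyro3 had 0.557 and 0.855. Since animals also vary, the exact test of edgeR was run too, assuming a biological coefficient of variation of 0.4, and it called 1.54% of genes higher and 3.83% lower. It called Timd4 (adjusted p = 0.000398), Mertk (0.0150) and Mrc1 (0.0520) higher. Stab2 (0.105) and Axl (0.148) missed the threshold of 0.1, as did Stab1 (0.877).

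Markers of other cell types were set beside these values. The 8 pan-macrophage markers were all past 1.5-fold upward, with a median log2 change of 2.44, and their summed level was 6241 and 13432. The 10 red pulp macrophage markers summed to 3001 and 10304, and none of them was at 0. Vcam1, the one with the most cKO reads before any correction for length, had 314 and 2655 reads, and Spic, which encodes the transcription factor of red pulp macrophages, had 33 and 142. Of the 5 marginal zone macrophage markers Cd209b was at 0 in both libraries and Marco was at 0 in the control library, and the summed level was 106 and 855. The 4 of them that were compared were all past 1.5-fold upward, with a median of 3.25, or 2.54 with Marco at its bound. Cd5l, a secreted protein of resident macrophages, had 26 and 479 reads. Dendritic cell markers moved less, with 2 of 10 at least 1.5-fold higher, 0 lower and a median of 0.10. The median was -0.25 for the 13 T cell core genes, 0.20 for 10 Treg markers, 0.45 for 10 granulocyte markers, -0.77 for 5 stromal and follicular dendritic markers, 0.96 for 7 megakaryocyte and platelet markers and -1.18 for 7 erythroid markers. The part of these cell types in the receptor levels was not tested.

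**Figure D4:**
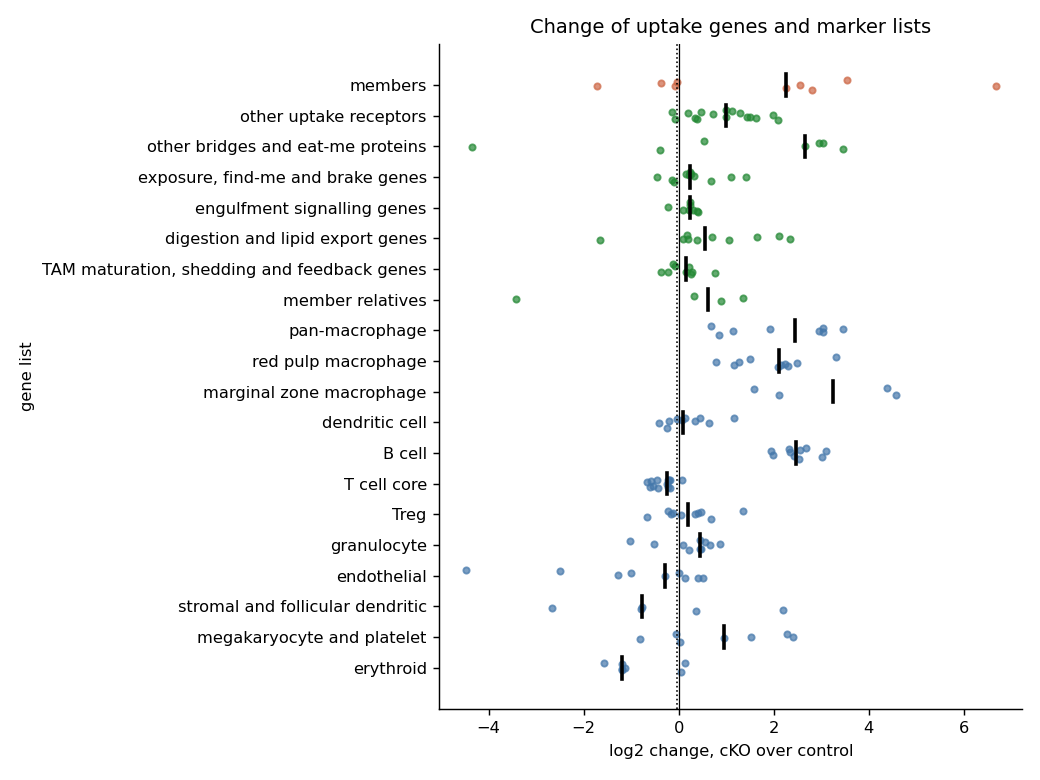
Log2 change (cKO over control, horizontal axis) of every gene compared in each list (vertical axis), with black bars for the list medians and a dotted line for the median of all genes compared (-0.04). The 10 genes described here are in orange, further uptake genes in green and cell type markers in blue. The macrophage and B cell lists lie to the right, with medians from 2.12 to 3.25.

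Division by a marker sum shows whether a gene moved more or less than that list. The intervals of these ratios take the marker sums as fixed and leave out the counting error of those sums, so they are too narrow. In the control library the C1q sum rested on 175 reads and the marginal zone sum on 110. Relative to the reads of the pan-macrophage list, Mertk was 5.57-fold higher with cKO (95% interval 3.93 to 8.13), Mrc1 3.24-fold, Stab2 2.78-fold and Axl 2.23-fold. On the same basis Tyro3 had a ratio of 0.453, Pros1 of 0.437 and Mfge8 of 0.357. That list rests mainly on Csf1r and Sirpa, which other myeloid cells also express. Relative to the red pulp macrophage list the ratios were 3.49 (2.46 to 5.09) for Mertk, 2.03 for Mrc1, 1.74 for Stab2 and 1.3995 (1.22 to 1.61) for Axl. Relative to the 3 C1q genes, whose summed level was 8.91-fold higher, Mertk had a ratio of 1.35 with an interval of 0.949 to 1.96, and Stab2 one of 0.672 with an interval of 0.455 to 1.022. Axl at 0.539 (0.469 to 0.622) and Mrc1 at 0.783 (0.676 to 0.909) were below 1. Relative to the marginal zone macrophage list the ratios were 1.49 (1.05 to 2.18) for Mertk, 0.868 for Mrc1, 0.746 for Stab2 and 0.598 for Axl. Relative to the B cell list they were 2.15 for Mertk, 1.25 for Mrc1, 1.07 (0.728 to 1.63) for Stab2 and 0.862 for Axl. The red pulp, C1q, marginal zone and B cell denominators were chosen after seeing the data. Whether Axl, Mrc1 and Stab2 were higher or lower per macrophage marker read therefore depended on the markers chosen. The ratios of Tyro3, Pros1 and Mfge8 were below 1 for the pan-macrophage, red pulp, C1q, marginal zone and B cell denominators. The summed level of each of these lists was higher with cKO. Relative to the T cell core list the ratios were 1.24 (0.904 to 1.69) for Tyro3, 1.19 (0.963 to 1.48) for Pros1 and 0.975 (0.800 to 1.19) for Mfge8. These intervals include 1.

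**Figure D5:**
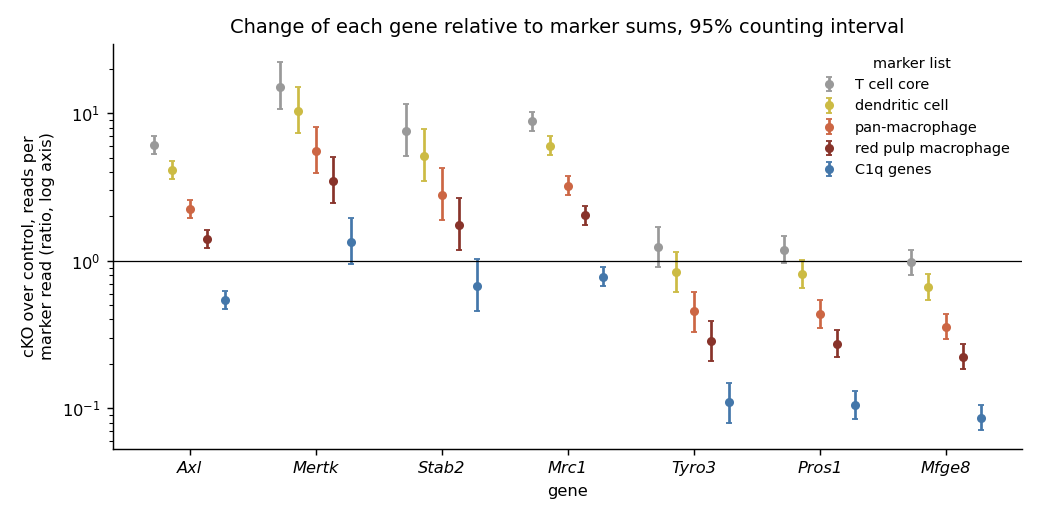
Ratio (cKO over control, log axis) of the reads of 7 genes per read of 5 marker lists, with points for the ratio and bars for the 95% counting interval. The intervals take the marker sums as fixed. For each gene the ratio falls from the T cell core denominator to the C1q denominator. Mertk goes from 15.2 to 1.35 and Mfge8 from 0.975 to 0.0862.

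A list of 71 further genes of apoptotic cell uptake was examined in the same way. Of the 65 compared, 25 were higher and 3 lower by 1.5-fold or more, with a median log2 change of 0.33. The shares among all genes compared were 17.2% higher and 24.2% lower. Of these genes 5 (C1qa, C1qb, C1qc, Nr1h3 and Sirpa) also stand in the macrophage lists, and without them 20 of 60 were higher and the median was 0.29. The further receptors moved in the direction of Mertk and Axl, with 10 of 16 at least 1.5-fold higher and 0 lower. Among them Cd36, a scavenger receptor for oxidized lipid, had 138 and 499 reads and a log2 change of 2.08. Msr1, the class A scavenger receptor, changed by 1.97 from 92 to 310 reads. Lrp1, a large endocytic receptor that binds calreticulin and C1q, had the most reads of these receptors with 3188 and 7310 and changed by 1.43. Havcr1, the TIM-1 relative of Timd4, had 23 and 62 reads. Adgrb1 and Megf10 were at 0 in both libraries.

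Bridges and eat-me proteins outside the 10 genes differed among themselves, with 4 of 7 higher and 1 lower by 1.5-fold or more. Among all genes compared the shares were 17.2% and 24.2%. The C1q genes C1qa, C1qb and C1qc, which encode the opsonin of the classical complement pathway, changed by 3.04, 3.46 and 2.96 on the log2 scale. Thbs1, which encodes a bridge to CD36, had 263 and 1419 reads and changed by 2.66. Calr, the calreticulin gene, with 16396 and 10585 reads changed by -0.40, and Anxa1 by 0.53. Edil3, a relative of Mfge8, had 20 and 0 reads, just above the depth at which zeros were counted.

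The general engulfment machinery did not move with the receptors. Of the 8 engulfment signalling genes compared, such as Elmo1, Dock1 and Rac1, 0 were past 1.5-fold in either direction, and their median was 0.24. Among genes of digestion and lipid export 5 of 10 were at least 1.5-fold higher and 1 was lower. Abca1, the cholesterol exporter that macrophages use after uptake, had 1259 and 5460 reads and changed by 2.35, and its regulator Nr1h3, which encodes LXR alpha, changed by 2.11 from 31 to 117 reads. Rubcn, which acts in LC3-associated phagocytosis, changed by 1.65. Dnase2a, the lysosomal nuclease that digests DNA of engulfed cells, changed by -1.65 from 668 to 180 reads, and the erythroid markers, with 5 of 7 at least 1.5-fold lower, moved with it, and their part in this value was not tested. Of the genes that expose phosphatidylserine, attract phagocytes or restrain uptake, 3 of 11 were at least 1.5-fold higher (P2ry2, Cx3cr1 and Sirpa) and 0 lower. Beside the counts of these lists stand shares of 17.2% higher and 24.2% lower among all genes compared. Cd47, which gives the do-not-eat-me signal, changed by -0.15.

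Genes that act on the TAM system itself were mostly within 1.5-fold. Of 9 such genes 1 was higher and 0 were lower, beside 17.2% and 24.2% of all genes compared. Ggcx and Vkorc1, which are needed for the carboxylation of GAS6 and protein S, changed by 0.28 and -0.12. The sheddase genes Adam10 and Adam17 changed by -0.22 and 0.25. Socs1 and Socs3, which TAM signalling induces in myeloid cells together with the type I interferon receptor, changed by 0.22 and 0.76. Among 4 compared relatives of the 10 genes outside these lists 2 were higher and 1, Proc with 10 and 0 reads, was lower. Of all genes with 10 to 19 control reads, 49.8% had 0 cKO reads, so the zero of Proc was common at that depth. The mannose receptor family member Mrc2 had 14 and 32 reads, whereas Ly75 with 2364 and 2515 reads changed by 0.32.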

How the data were processed

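RNA-seq values of 2 libraries, 1 per genotype, were used. The extract protocol and the methods state that reads were aligned with TopHat to mm10. The submitters' processing notes also name STAR, StringTie, DESeq2 and bcl2fastq 2.0, and the counter, annotation and normalization are not given in the sources used here. The authors deposited a signal, 1 value per gene. In both libraries 100% of values were whole multiples of the smallest (relative tolerance 0.001), so they were taken as read counts divided by 1 size factor, and whole reads were recovered. The exact binomial test on these reads called 2197 genes higher and 2617 lower.

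Changes were computed on log2(value + 1), for genes with a mean of at least 1, with the fold threshold of 1.5 from the methods, and such a change understates that of low genes. Intervals of ratios were exact Clopper-Pearson intervals for the cKO part of a gene's reads, and those of levels were exact Poisson intervals. Without molecular identifiers, reads are not independent molecules. The binomial test was set against TMM-scaled totals with Benjamini-Hochberg adjustment over all genes tested. The steps were tested on simulated data. Exon and coding lengths came from GENCODE vM21 on GRCm38, which matched 20490 symbols once. All 10 promoters were matched in the RefSeq table. All 10 genes, Mettl14 and the list genes past 1.5-fold could be named. Foxp3, Spic, Pecam1, Vwf, Lyve1, Cd47, Calr, Anxa1, Ly75, Elmo1, Dock1, Rac1 and the TAM-related genes within 1.5-fold were chosen after their values were seen. The genes, lists and promoter motifs were chosen with earlier results of these data known. Python 3.11.15, numpy 2.4.6, scipy 1.17.1, pandas 2.3.3, matplotlib 3.10.9, R 4.3.3, edgeR 4.0.16 and DESeq2 1.42.0 were used.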

Additional observations from a re-analysis of the deposited data

How the results depend on the processing

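No paired analysis was possible because only 1 library was made per genotype, and for the same reason no library could be left out. The alternatives were pseudocounts of 0.1 and 5, dropping the filter or raising it to a mean of 10, scaling by TMM, by median of ratios or to equal T cell core genes, a threshold of 2-fold, only genes above 0 in both libraries, and both tests on recovered reads. The sign of the change was the same under these for Axl, Mertk, Timd4, Stab1, Stab2, Mrc1 and Mfge8 wherever they could be computed, and Tyro3 and Pros1 turned when T cell core genes were set equal. With a minimum mean of 10 the number of the 10 genes that were lower went from 1 to 0, and of the further uptake genes from 3 to 1, since genes of few reads were left out. With only genes above 0 in both libraries the further uptake genes that were lower also numbered 1, and the median of the 10 genes was 1.11, because Timd4 was left out. When T cell core genes were set equal that median was 2.51. In the exact test of edgeR at an assumed coefficient of 0.4, 3 of the 10 genes were higher and 0 lower, and of the further uptake genes 4 were higher and 1 lower. Timd4 depended most on the pseudocount, from 4.41 with 5 to 9.98 with 0.1. Per kilobase of coding length instead of exon length, which was chosen after seeing the data, Axl, Mertk and Tyro3 took 72.0%, 22.5% and 5.54% of TAM receptor reads in the cKO library and 66.5%, 8.31% and 25.2% in the control library, so that the equal share of Axl in both was not kept. The planned length from RefSeq proteins was not run. Depth limits Stab1, Gas6 and Timd4 in the control library.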
